A study of Mus musculus with 12 samples.

Results

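CD8+ cells carrying asGM1 were compared with CD8+ cells lacking it after PD-1 blockade, using 6 of the 12 RNA-seq libraries of the study. The cells came from Panc02 tumours (a mouse pancreatic carcinoma line) in wild type C57BL/6J mice, and all 6 libraries came from tumours treated with an anti-PD-1 antibody. Viable cells (DAPI-) positive for CD45.2 and CD8 were sorted into an asGM1-negative and an asGM1-positive population, and each population gave 3 libraries, numbered 1 to 3. The labels decide which libraries belong here, and no measured value enters that choice. The other 6 libraries are the same 2 populations from tumours given an isotype control antibody, and they enter here through the shared estimate of spread and as the background contrast. No T cell receptor or CD3 gate is named in the labels, and the labels do not say whether replicates came from separate mice. The p-values therefore reflect how far these libraries scatter, and that scatter may be technical.

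asGM1 (asialo-GM1) is a neutral glycosphingolipid, GM1 without its sialic acid. Antibodies to it are widely used to mark or deplete natural killer cells, and activated T cells and some myeloid cells can carry it too. PD-1 is an inhibitory receptor of antigen-experienced T cells, and blocking it can restore division in part of the tumour-infiltrating CD8+ pool. A dividing cell raises its transcripts in waves: E2F factors drive the genes of DNA replication before S phase, and the MuvB complex with B-MYB and FOXM1 drives those of mitosis, largely through a promoter element called CHR that often sits beside CCAAT boxes.

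Library totals ran from 59.0 to 70.2 M counts, so that 3 counts in a library, the limit that an observed 0 allows for counting error alone, amounted to 0.0432 to 0.0524 CPM (counts per library total of 1 M, with TMM factors applied). Mitochondrially encoded genes made up 0.365 to 0.612% of counts, and the top 10 genes of each library 4.98 to 5.95%. Cd8a, which encodes the alpha chain of CD8, was at 1721, 1860 and 1944 CPM in asGM1-negative replicates 1, 2 and 3. It was at 1590, 1710 and 1862 CPM in the asGM1-positive ones, an order kept for all triplets below. The 10 CD8 T cell markers summed to 12430 to 14290 CPM in asGM1-negative and 11340 to 14400 CPM in asGM1-positive libraries, and none passed the edgeR test (0 at an unadjusted p under 0.05, 0 by limma voom and 0 by DESeq2). Pair 2 stood apart in the heat shock gene Hspa1a: its libraries reached 151 and 146 CPM, and the remaining 4 lay between 22.5 and 32.6 CPM.

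Transcripts of the cell division machinery were higher in asGM1-positive cells, mostly by less than 2-fold, whereas the lower transcripts were fewer, had larger fold changes and included no gene of the division lists. Of 18657 genes tested, 299 passed edgeR's quasi-likelihood test (1.60%; adjusted p under 0.05, Benjamini-Hochberg). Of these, 177 were higher (0.949% of genes tested) and 122 lower (0.654%) in asGM1-positive cells. The log2 fold changes of the higher genes ran from 0.37 to 6.69 with a median of 0.81, and those of the lower genes from -10.95 to -0.46 with a median of -2.32. A change of at least 2-fold was seen in 33 of the 177 and 93 of the 122. Many of the lower genes were scarce: 56 averaged under 1 CPM in the asGM1-positive libraries and 26 had no count in any of them. Values of the 2 populations did not overlap for any of the 299 genes, against 19.7% of all genes tested (10.2% with the positive libraries higher, 9.51% with them lower).

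**Figure D1:**
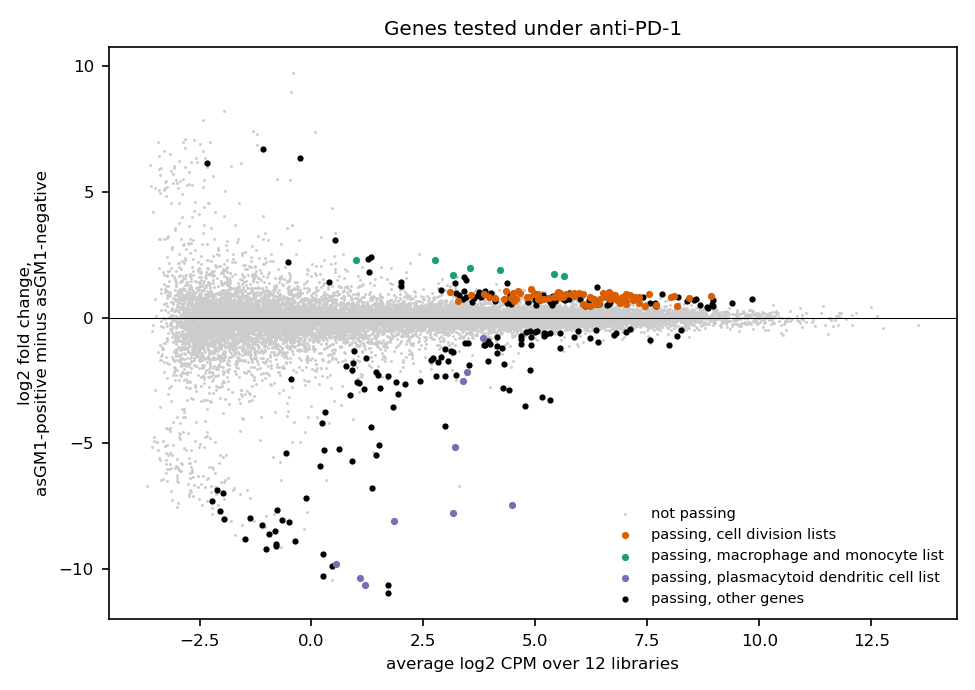
Log2 fold change (asGM1-positive minus asGM1-negative under anti-PD-1, y axis) against average log2 CPM (x axis) for all genes tested, with passing genes coloured by list. Passing cell division genes form a compact band between 0.47 and 1.12, while passing plasmacytoid dendritic cell markers lie below 0 and passing macrophage markers above 1.

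The count of passing genes depended on the fit and on each library. With the pair of equal replicate number as a block, 929 genes passed (531 higher, 398 lower; 4.98, 2.85 and 2.13% of genes tested), among them 176 of the 177 and 112 of the 122. Without asGM1-negative replicate 1, 2 or 3 the count was 118, 65 or 86, and without asGM1-positive replicate 1, 2 or 3 it was 171, 129 or 82. Leaving out both libraries of pair 2 left 17 (0.0871%), of which 4 were higher (0.0205%) and 13 lower (0.0666%).

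Of the 177 higher genes, 84 belonged to 11 lists of cell division genes that together held 215 tested members (39.1%, against 0.949% of all genes). No member was lower. The log2 fold change was above 0 for 213 members, and 205 were higher in the asGM1-positive library of every pair, against 19.5% of all genes tested. The median log2 fold change of the 215 was 0.73, against -0.01 over all genes, and the pair medians were 0.63, 0.78 and 0.69. Counts of members called were 177 with the pair as a block, 162 by DESeq2 and 79 by limma voom. Among all 18657 genes tested, 531, 497 and 164 were higher in these fits. They fell to 26, 11 and 15 without asGM1-negative replicate 1, 2 or 3, and to 46, 29 and 15 without asGM1-positive replicate 1, 2 or 3. Without pair 1, 2 or 3 they were 2, 0 and 1.

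Summed over the 215 genes, asGM1-negative libraries held 14120, 12980 and 13620 CPM and asGM1-positive libraries 20580, 20650 and 20750 CPM. The 3 positive libraries were within a narrow range and all above the negative ones. In bulk RNA, more cells in division and more of these transcripts per dividing cell cannot be told apart. Markers of other cells also differed between the sorted populations, as described further on, and their part in these sums was not tested.

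**Figure D2:**
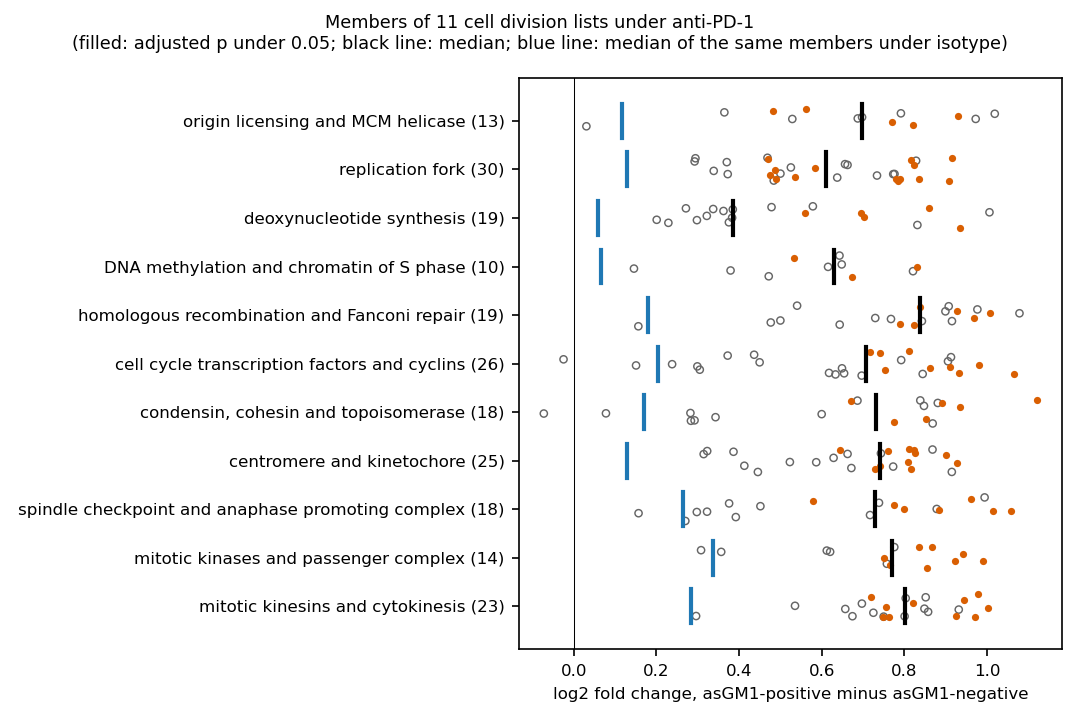
Log2 fold change (asGM1-positive minus asGM1-negative under anti-PD-1, x axis) of every tested member of the cell division lists, 1 row a list. Filled points passed the test, black ticks are list medians (0.38 to 0.84) and blue ticks the medians of the same genes under isotype, all of which lie closer to 0.

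Promoters of 6 division genes are shown, with and without the elements that the textbook account names. Each line gives the 150 bases before the annotated start, on the gene's strand, from RefSeq (GRCm38.p6), and capitals mark the searched motifs: CCAAT, CHR (TTTGAA or TTCGAA) and E2F (TTCGCGC or TTGGCGC), read on both strands. Cdk1 is at chr10:69352913-69353062 (minus strand), Cdca5 at chr19:6084947-6085096 (plus), Top2a at chr11:99024190-99024339 (minus), Ube2c at chr2:164769779-164769928 (plus), Pclaf at chr9:65890173-65890322 (plus) and Birc5 at chr11:117849087-117849236 (plus).
Cdk1: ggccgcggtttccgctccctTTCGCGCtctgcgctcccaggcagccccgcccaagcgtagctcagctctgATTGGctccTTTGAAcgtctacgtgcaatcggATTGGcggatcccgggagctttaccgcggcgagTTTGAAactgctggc
Cdca5: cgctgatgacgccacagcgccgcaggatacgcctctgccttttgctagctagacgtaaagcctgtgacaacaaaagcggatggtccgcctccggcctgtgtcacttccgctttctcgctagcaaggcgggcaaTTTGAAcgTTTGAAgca
Top2a: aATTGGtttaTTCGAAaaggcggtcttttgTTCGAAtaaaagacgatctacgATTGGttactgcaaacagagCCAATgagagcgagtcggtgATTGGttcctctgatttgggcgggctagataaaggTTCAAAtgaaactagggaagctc
Ube2c: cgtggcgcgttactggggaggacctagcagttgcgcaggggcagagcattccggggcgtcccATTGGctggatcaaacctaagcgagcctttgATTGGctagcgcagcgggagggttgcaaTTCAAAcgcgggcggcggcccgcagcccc
Pclaf: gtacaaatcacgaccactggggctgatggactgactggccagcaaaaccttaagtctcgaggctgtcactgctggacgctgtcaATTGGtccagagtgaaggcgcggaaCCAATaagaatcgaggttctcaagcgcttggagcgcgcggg
Birc5: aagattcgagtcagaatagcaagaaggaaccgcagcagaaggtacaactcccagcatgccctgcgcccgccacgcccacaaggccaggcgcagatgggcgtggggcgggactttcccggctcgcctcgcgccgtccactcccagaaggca

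Counted from the start, Cdk1 held CHR letters at -15 and -71 and CCAAT boxes at -48 and -80. In Top2a and Ube2c the CHR letters nearest the start, at -23 and -29, also had CCAAT boxes upstream. Cdca5 carried CHR letters at -17 and -9 and no CCAAT box in the searched window, and Pclaf carried CCAAT boxes and no CHR letters. Birc5 (survivin), whose rise is among the calls kept without any single library, held none of the searched letters in the window. Across 300 bases (250 before to 50 after the start) of genes with 1 listed start, CHR letters were found in 52 of 77 members of the 5 mitosis lists (67.5%), against 14.6% of genes tested and 19.8% of all promoters. CHR together with CCAAT was found in 49.4% of the mitosis members and 6.18% of genes tested. In the 5 S phase lists, E2F letters were found in 19 of 66 members (28.8%, against 7.08% of genes tested and 3.91% of all promoters) and CHR letters in 16.7%. These matches describe letters and are no evidence that a factor bound. The shares were counted over all list members with 1 listed start, whether or not they passed the test.

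In the 5 lists of S phase, 33 of 91 tested members rose and none fell, with a median log2 fold change of 0.65. Pclaf, the PCNA clamp-associated factor and a member of no list, was at 140, 127 and 133 CPM in the negative against 259, 231 and 270 CPM in the positive libraries. Every positive library was well above every negative one, and Pclaf rose by 0.93 ± 0.10 (log2, SE; edgeR adjusted p = 0.00205). It kept its call without any single library and without any pair. Cdc45, which activates the replicative helicase, was at 47.8, 44.4 and 51.6 CPM against 81.2, 80.4 and 87.1 CPM. The libraries of each population lay close together and did not overlap, and the rise was 0.79 ± 0.12 (log2, SE; edgeR adjusted p = 0.00903, and 0.0516 without asGM1-negative replicate 2).

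Genes of deoxynucleotide synthesis rose as well (5 of 19, and 13 with the pair as a block). Rrm2, the regulated subunit of ribonucleotide reductase, was at 308, 289 and 285 CPM against 534, 524 and 541 CPM (log2 0.86 ± 0.16 SE, edgeR adjusted p = 0.0251). Its populations lay far apart, yet leaving out any 1 of the 6 libraries raised its adjusted p to between 0.0561 and 0.113. Tk1 (log2 0.69), Tyms (0.70) and Dut (0.56), which feed or protect the thymidylate pool, also passed. Tk1 was at 85.0, 92.8 and 80.7 CPM against 125, 133 and 160 CPM, without overlap (edgeR adjusted p = 0.00971, and 0.0598 without asGM1-negative replicate 3).

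The list of origin licensing and the MCM helicase gave 5 of 13 (Cdc6, Orc6, Mcm5, Mcm7 and Gmnn), with 12 of 13 passing when the pair was a block. Cdc6, the loader of the MCM helicase, was at 39.2, 40.1 and 38.7 CPM against 76.5, 79.4 and 69.2 CPM. These values were nearly 2 separate levels, although without any 1 of the 6 libraries the adjusted p lay between 0.0696 and 0.117. The fork list gave 14 of 30, from Tipin and Pcna (log2 0.47 each) to Gins1 (0.92) and Timeless (0.91), and 27 of 30 with the pair as a block. Pcna, the sliding clamp, was at 210, 215 and 209 CPM against 258, 283 and 338 CPM, a smaller and less even rise (log2 0.47 ± 0.10 SE, edgeR adjusted p = 0.0387, and up to 0.153 without 1 of the 6 libraries). Repair by homologous recombination gave 6 of 19, including the BRCA1 partner Bard1 (log2 1.01), and S phase chromatin 3 of 10, including the histone chaperone Asf1b (0.83). These lists gave 16 and 9 with the pair as a block.

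Mitosis genes rose as broadly, with 42 of 98 passing over 5 lists and a median of 0.76, and the list of cyclins and cell cycle transcription factors gave 9 of 26 (20 with the pair as a block). Cdk1, the mitotic kinase, was at 58.2, 64.3 and 63.5 CPM against 101, 107 and 130 CPM. The lowest positive value exceeded the highest negative value, and Cdk1 rose by 0.86 ± 0.11 (log2, SE; edgeR adjusted p = 0.00482). Its phosphatase Cdc25c was at 10.96 to 12.4 CPM against 20.6 to 27.7 CPM, again without overlap (log2 1.07 ± 0.15 SE, edgeR adjusted p = 0.00865). Both cyclins B passed, Ccnb1 at log2 0.91 and Ccnb2 at 0.72, as did cyclin A2 (Ccna2, 0.93) and the factors Foxm1 (0.81) and Mybl2 (0.98).

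**Figure D3:**
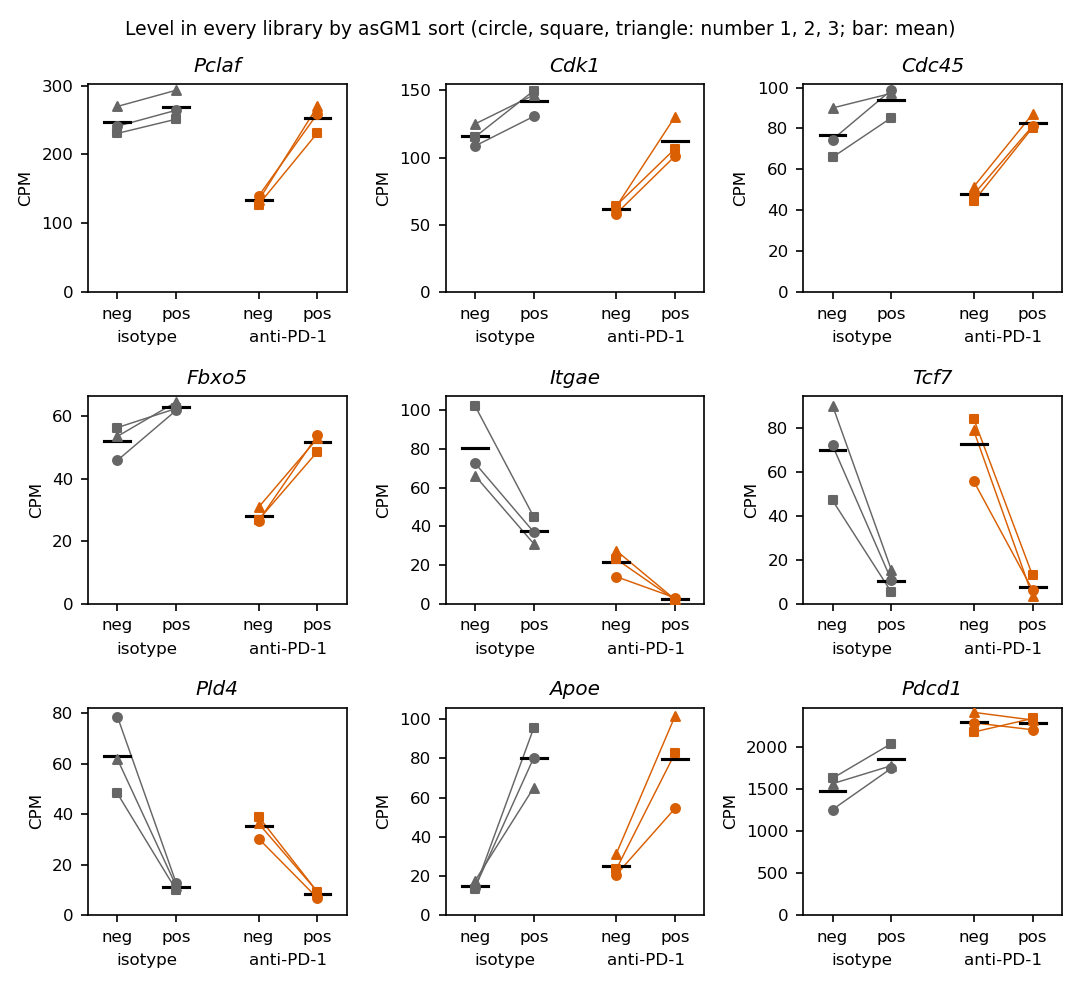
CPM in all 12 libraries of Pclaf, Cdk1, Cdc45, Fbxo5, Itgae, Tcf7, Pld4, Apoe and Pdcd1, with lines joining libraries of equal number and bars at group means. Under anti-PD-1 the first 4 genes are higher and Itgae, Tcf7 and Pld4 lower in each asGM1-positive library, Apoe is higher, and Pdcd1 overlaps.

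Some regulators of chromosome separation kept their calls without any single library. Fbxo5 (Emi1), an inhibitor of the anaphase promoting complex, was at 26.5, 26.8 and 30.9 CPM against 53.8, 48.6 and 52.8 CPM (log2 0.88 ± 0.10 SE, edgeR adjusted p = 0.00360). Cdca5 (sororin), which protects cohesin until anaphase, was at 34.2, 33.6 and 33.1 CPM against 61.6, 62.7 and 68.8 CPM (log2 0.94 ± 0.12 SE, edgeR adjusted p = 0.00557). In both genes the negative libraries were nearly level and all positive libraries were higher. Cdk1, Cdc25c, Fbxo5, Cdca5, Birc5 and Aurkb kept an adjusted p under 0.05 without any single one of the 12 libraries, at most 0.0472. Each of them lost its call when 1 or another of the pairs was left out. Espl1 (separase), which cuts cohesin, had the largest rise of the division lists, from 17.9, 16.9 and 17.0 CPM to 32.7, 44.5 and 35.4 CPM (log2 1.12 ± 0.21 SE, edgeR adjusted p = 0.0245). Its groups did not overlap, but its adjusted p reached 0.113 without 1 of the 6 libraries.

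The remaining mitosis members spread over every functional step. The kinetochore list gave 11 of 25, among them Spc24, Spc25 and Nuf2 of the NDC80 complex (log2 0.74, 0.83 and 0.90), and the checkpoint list 7 of 18, among them Mad2l1 (0.58) and the ubiquitin-conjugating enzyme Ube2c (1.01). Mitotic kinases and the passenger complex gave 8 of 14, including Plk1 (0.99) and Aurka (0.87), kinesins and cytokinesis 10 of 23, including Kif23 (0.97) and Prc1 (0.82), and condensin, cohesin and topoisomerase 6 of 18, including Smc2 (0.77) and Top2a (0.85). In this order the 5 lists gave 18, 15, 12, 21 and 14 with the pair as a block. The 10 members that were not higher in every pair were Orc2, Xrcc2, Fancg, Lin9, Lin37, Lin54, Cks2, Rad21, Pttg1 and Cdc27. Pttg1 (securin), the separase inhibitor, had a log2 fold change of -0.07 and Lin37, a subunit of MuvB, of -0.02. Mki67, a protein of mitotic chromosomes, was at 184, 125 and 131 CPM against 231, 153 and 279 CPM, which overlapped and did not pass (edgeR adjusted p = 0.356).

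Genes that act ahead of commitment to the cycle were held in a separate list. In this list of D cyclins and CDK inhibitors 1 of 15 passed, with a median of 0.16, and Cdk4 was the second with the pair as a block. The first was Cdkn2c (p18-INK4c), an inhibitor of CDK4 and CDK6, at 20.4, 18.7 and 20.3 CPM against 33.1, 27.6 and 31.9 CPM (log2 0.64 ± 0.13 SE, edgeR adjusted p = 0.0325, and from 0.0547 to 0.157 without 1 of the 6 libraries). All 3 positive libraries were above the negative ones.

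Under isotype treatment the same 215 genes had a median log2 difference of 0.17, with 181 above 0 and none passing. Their sums were 17330, 17280 and 22840 CPM in isotype asGM1-negative and 20260, 19350 and 25200 CPM in isotype asGM1-positive libraries. These ranges overlapped, but the positive library held the larger sum in each of the 3 isotype pairs. The asGM1-negative libraries under anti-PD-1 held the lowest sums of the 4 groups. The test of the difference between the contrasts (the interaction) passed for 0 of 18657 genes in edgeR (0%), with 1341 (7.19%) at an unadjusted p under 0.05, 0 by limma voom and 136 by DESeq2. Of the 215 division genes 105 had an unadjusted interaction p under 0.05 (48.8%), all 105 with the larger difference under anti-PD-1. With the pair as a block 13 genes passed the interaction (0.0697%; 6 above 0, 0.0322%, and 7 below, 0.0375%), of which Top2a and Lig1 were list members. Top2a averaged 317 CPM in isotype asGM1-negative and 315 CPM in isotype asGM1-positive cells, and under anti-PD-1 was at 199, 143 and 155 CPM against 318, 276 and 303 CPM.

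The isotype contrast called 243 genes (1.30%), 68 higher (0.364%) and 175 lower (0.938%). Of these, 19 were also among the 177 higher genes under anti-PD-1 (10.7% of the 177, 27.9% of the 68) and 72 among the 122 lower genes (59.0% of the 122, 41.1% of the 175). The 2 contrasts share no library, although they share the estimate of spread.

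Outside the lists, 82 higher genes remained, several with known roles in dividing cells. Stmn1 (stathmin, which destabilises microtubules) was at 298, 309 and 299 CPM against 494, 420 and 558 CPM, and Tubb5 (a beta-tubulin) at 216, 236 and 224 CPM against 333, 353 and 408 CPM. Neither overlapped, and both kept their calls without any single library (edgeR adjusted p at most 0.0403). Tubulins are near-identical paralogs, so the split of counts between them is uncertain. Others were the alpha-tubulin Tuba1b (log2 0.75), the nuclear transport genes Ran (0.50) and Kpna2 (0.81), and Hmgb2 (0.58), a chromatin protein, all 4 chosen after their values were seen and each losing its call without 1 or more of the 6 libraries (adjusted p up to 0.0532, 0.109, 0.159 and 0.117). Gbp2b, an interferon-induced GTPase, was at 1.01, 0.970 and 1.21 CPM against 5.80, 4.49 and 5.83 CPM (log2 2.34 ± 0.37 SE, edgeR adjusted p = 0.0116), with an adjusted p of up to 0.0715 without asGM1-negative replicate 1 or 2. It was also higher under isotype (log2 2.67).

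Markers of naive, stem-like and recirculating T cells were lower in asGM1-positive cells, though not all of them. Of 24 tested members 5 fell and none rose, with a median of -0.63, and 11 fell with the pair as a block. Tcf7 (TCF-1), a transcription factor of self-renewing T cells, was at 55.9, 84.3 and 79.0 CPM against 6.27, 12.9 and 3.43 CPM. All 3 positive values lay far below the lowest negative one, and Tcf7 fell by 3.28 (log2, SE 0.49; edgeR adjusted p = 0.00913). S1pr1, the receptor for exit from tissue, was at 21.7, 38.5 and 35.8 CPM against 8.06, 12.2 and 9.24 CPM. Its groups did not overlap, and its adjusted p of 0.0205 rose to as much as 0.0941 without 1 of the 6 libraries.

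Lef1, the close relative of Tcf7, did not follow it. Its values were 52.1, 56.2 and 56.4 CPM against 53.7, 57.2 and 52.0 CPM (log2 -0.02). Id3 and Nsg2 passed as well. Id3, an inhibitor of E proteins that marks long-lived memory cells, was at 0.874, 1.82 and 1.55 CPM against 0.115, 0.192 and 0.302 CPM, low in every library. Ccr7, the lymph node homing receptor, was at 72.6, 67.8 and 73.7 CPM against 27.1, 37.0 and 21.5 CPM, without overlap and just outside the threshold (edgeR adjusted p = 0.0510, and 0.00503 with the pair as a block). Under isotype the list's median was -1.36 and 13 members passed as lower, and no member passed the interaction.

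Pik3ip1 and Tespa1, in no list, were among the steadiest falls. Pik3ip1, a brake on PI3K signalling abundant in resting T cells, was at 30.6, 32.4 and 32.7 CPM against 13.96, 14.8 and 14.7 CPM (log2 -1.14 ± 0.12 SE, edgeR adjusted p = 0.00205). Tespa1, an adaptor of T cell receptor signalling during thymic selection, was at 13.0, 20.03 and 17.4 CPM against 3.73, 4.59 and 5.82 CPM (log2 -1.83 ± 0.19 SE, edgeR adjusted p = 0.00205). The positive libraries of Pik3ip1 differed by under 1 CPM, and both genes kept their calls without any library or pair. Rora (log2 -0.95), Emb (-1.08) and Rab37 (-1.10) also fell, but each lost its call without 1 or more of the 6 libraries (adjusted p up to 0.0783, 0.0845 and 0.0855).

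Itgae (CD103), the integrin chain that binds E-cadherin and marks tissue-resident CD8+ cells, was at 14.0, 23.1 and 27.5 CPM against 3.06, 1.96 and 2.17 CPM. Every positive library was far below every negative one, and Itgae fell by 3.16 (log2, SE 0.28), a call kept without any library or pair. Under isotype its log2 difference was -1.10 (edgeR adjusted p = 0.0669), and the interaction of -2.07 did not pass (edgeR adjusted p = 0.269, and 0.0618 with the pair as a block). In the residency list 2 of 14 passed, Itgae and the gut-homing receptor Ccr9, and with the pair as a block 5 were lower. Ccr9 is also one of the plasmacytoid dendritic cell markers described further on. It lost its call without any single anti-PD-1 library. Cd69, which holds cells in tissue by opposing S1PR1, was at 313, 366 and 373 CPM against 236, 284 and 295 CPM (edgeR adjusted p = 0.376, and 0.00846 with the pair as a block).

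Transcripts of most inhibitory receptors overlapped between the populations. Of 24 tested exhaustion genes 1 rose, with a median of 0.04, and 3 were higher with the pair as a block (Entpd1, Tox and Eomes). Pdcd1, which encodes PD-1 itself, was at 2295, 2184 and 2419 CPM against 2212, 2346 and 2328 CPM (log2 0.00 ± 0.10 SE, edgeR adjusted p = 0.998), fully overlapping. Havcr2 (TIM-3) was at 1054, 785 and 1004 CPM against 1070, 1088 and 980 CPM, and Lag3 and Tigit had log2 differences of 0.09 and 0.00 and did not pass. The gene that rose without the block was Entpd1 (CD39), an enzyme that removes extracellular ATP, at 184, 181 and 163 CPM against 247, 263 and 219 CPM (log2 0.47 ± 0.09 SE, edgeR adjusted p = 0.0251, and up to 0.138 without 1 of the 6 libraries). It was also higher under isotype (log2 0.68).

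Among cytotoxic granule genes 1 of 18 rose and none fell. When the pair was a block, 2 were higher (Gzmk and Prf1) and 3 lower, namely Gzmc (log2 -0.67), Ctsw (-0.37) and the death ligand Fasl (-0.26). Gzmk (granzyme K), a protease of memory-like effector cells, was at 61.3, 56.7 and 91.3 CPM against 120, 182 and 182 CPM (log2 1.21 ± 0.24 SE, edgeR adjusted p = 0.0312, and up to 0.160 without 1 of the 6 libraries). The groups did not overlap, but the positive replicate 1 was lower than the other 2. Gzmb, the main killing protease, was at 4791, 4500 and 3864 CPM against 5169, 6111 and 6257 CPM (edgeR adjusted p = 0.254, not passing). Prf1 (perforin) was at 1364, 1198 and 986 CPM against 1847, 1919 and 1323 CPM. Its groups overlapped, though each positive library exceeded its partner, and it passed with the pair as a block (edgeR adjusted p = 0.00650, against 0.397 without the block).

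No effector cytokine or chemokine of 18 passed in edgeR without the block, where 11 had an unadjusted p under 0.05. The share of all genes at that unadjusted level is not given for this contrast, here or for the lists below. Limma voom called none and DESeq2 called 7. With the pair as a block 2 were higher, the chemokines Ccl3 and Ccl5, and 10 lower, among them Tnf, Csf1, Csf2, Lta and Ltb. Csf2 (GM-CSF) was at 17.9, 38.9 and 30.2 CPM against 2.37, 10.3 and 9.40 CPM, without overlap (log2 -1.98 ± 0.54 SE, edgeR adjusted p = 0.106, and 0.00358 with the block). Ifng was at 340, 321 and 354 CPM against 405, 437 and 423 CPM (edgeR adjusted p = 0.519, not passing).

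Interferon response genes leaned lower in asGM1-positive cells within pairs. Of 30 tested members 24 were lower in every pair, against 19.6% of all genes, and the median was -0.36 (-0.03 under isotype). None passed in edgeR without the block, where 6 had an unadjusted p under 0.05, and 1 passed in limma voom and 2 in DESeq2. With the pair as a block 11 were lower, among them Ifit1, Ifit3, Rsad2, Irf7 and Usp18, against 2.13% of all genes tested. Summed over the list, the libraries held 5029, 4658 and 4421 CPM against 4045, 3666 and 3540 CPM, each positive library below all negative ones. Ifit3, an antiviral RNA-binding protein, was at 215, 259 and 184 CPM against 113, 119 and 96.5 CPM (edgeR adjusted p = 0.303, and 0.000875 with the block).

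Cd274 (PD-L1), which interferons induce and which binds PD-1, was at 182, 156 and 135 CPM against 114, 92.3 and 86.6 CPM. The groups did not overlap, and Cd274 fell by 0.69 (log2, SE 0.14; edgeR adjusted p = 0.0300, and up to 0.129 without 1 of the 6 libraries). In the lists of MHC class I presentation and of immediate early genes none of 15 and none of 21 passed in edgeR without the block, where 5 and 3 had an unadjusted p under 0.05. Limma voom called 0 in both, and DESeq2 0 and 1. With the pair as a block 5 class I genes (including H2-K1 and H2-D1) and 6 immediate early genes (including Fos, Junb and Dusp1) were lower. In that fit 2.13% of all genes tested were lower. Class I genes are near-identical paralogs, so their counts may be divided between copies.

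The list of asialo-GM1 and ganglioside enzymes, which is wider than the enzymes that make or consume asGM1, gave no rise. Of 23 tested, 1 fell, and with the pair as a block so did a second, Gm2a, the activator protein of GM2 breakdown (log2 -0.37). B4galnt1, the GM2/GA2 synthase that acts before asGM1, was at 1283, 1269 and 1342 CPM against 1404, 1496 and 1290 CPM (log2 0.11 ± 0.13 SE, edgeR adjusted p = 0.898). B3galt4, which adds the galactose that completes it, was at 14.6, 16.4 and 13.4 CPM against 12.2, 16.2 and 12.5 CPM. Both overlapped. St3gal2, a sialyltransferase that can use asGM1 as its acceptor, was at 14.8, 14.6 and 13.7 CPM against 5.81, 5.90 and 5.27 CPM, at 2 tight and separate levels (log2 -1.34 ± 0.24 SE, edgeR adjusted p = 0.0194). Without any 1 of the 6 libraries its adjusted p lay between 0.0589 and 0.0913, and under isotype it averaged 10.2 CPM against 4.11 CPM.

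St6gal1, a sialyltransferase of glycoproteins, fell further, from 13.1, 18.9 and 18.6 CPM to 0.762, 3.14 and 3.02 CPM. No values overlapped (log2 -2.88 ± 0.46 SE, edgeR adjusted p = 0.0116, and 0.0501 without asGM1-negative replicate 2).

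Markers of plasmacytoid dendritic cells, the interferon-producing cells that in mice can carry CD8 alpha, were mostly lower in asGM1-positive cells. Of 16 tested members 10 fell and none rose, with a median of -2.35, and 9 were lower with the pair as a block. Siglech, a surface lectin of these cells, was at 31.5, 34.8 and 25.1 CPM against 0.0719, 0.489 and 0 CPM. Spib, a transcription factor of their lineage, was at 1.90, 2.57 and 3.20 CPM and had no count in the 3 asGM1-positive libraries. Against a floor of 3 counts per library Spib was at least 55.3-fold lower, and Cox6a2 and Cd300c, also without a count, at least 65.8-fold and 36.8-fold lower. Spib and Siglech kept their calls without any single library. The same list had a median of -3.52 under isotype, where 13 members passed as lower, and no member passed the interaction.

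The 6 members that did not pass were Irf8, Runx2, Bst2, Tcf4, Pacsin1 and Upb1. Over the whole list the libraries summed to 965, 983 and 860 CPM against 915, 967 and 766 CPM, most of it Irf8, which was at 508 to 570 CPM in negative and 520 to 738 CPM in positive libraries. Without Irf8, Runx2, Bst2 and Tcf4, a choice made after the values were seen, the sums were 119, 151 and 115 CPM against 29.1, 32.1 and 31.7 CPM. The part of such cells in the other falls was not tested.

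Several falls in no list are of genes known from the same lineage or from B cells. Pld4, an endolysosomal nuclease of plasmacytoid dendritic and B cells, was at 30.4, 39.1 and 36.3 CPM against 6.75, 9.18 and 9.30 CPM (log2 -2.07, edgeR adjusted p = 0.00205), without overlap. Iglc3, an immunoglobulin light chain constant segment, and Dntt, the polymerase that adds untemplated bases at rearranging receptor genes, had no count in the positive libraries and were at least 82.8-fold and 51.5-fold lower. Bcl11a, a transcription factor of both lineages, also had none and was at least 39.3-fold lower. Among conventional dendritic cell markers 3 of 11 fell (Flt3, Clec9a and Ccl22), while limma voom called none. Clec9a and Ccl22 lost their calls with the pair as a block (edgeR adjusted p = 0.0507 and 0.0671) and without any 1 of the 6 libraries. In their place Cd209a and Clec10a passed with the block, beside Flt3. Among B and plasma cell markers 1 of 6 fell (Mzb1), and 3 with the pair as a block, while 2 had a log2 fold change above 0. The immunoglobulin genes Igkc (log2 0.30) and Ighm (-0.84) did not pass without the block (edgeR adjusted p = 0.93 and 0.572). Flt3, a growth factor receptor of dendritic cells, was at 3.46, 3.54 and 4.71 CPM against 0.259, 0 and 0.0720 CPM (adjusted p up to 0.140 without 1 of the 6 libraries).

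Macrophage transcripts went the other way. Of 18 tested markers 7 rose and none fell, and 9 rose with the pair as a block. Among them were the complement genes C1qa, C1qb and C1qc, the lipid carrier Apoe, lysozyme (Lyz2) and the growth factor receptor Csf1r. Of these, C1qb, Lyz2 and Csf1r lost their calls without 1 or more of the anti-PD-1 libraries. C1qc was at 3.68, 2.67 and 4.39 CPM against 10.7, 11.8 and 19.5 CPM (log2 1.97 ± 0.26 SE, edgeR adjusted p = 0.00571). Apoe was at 20.6, 23.3 and 31.2 CPM against 54.5, 82.7 and 102 CPM. In both genes all positive libraries were above all negative ones, and both kept their calls without any single library. The macrophage list's median was 1.32 under anti-PD-1 and 1.93 under isotype, where 9 members passed as higher. No member passed the interaction.

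**Figure D4:**
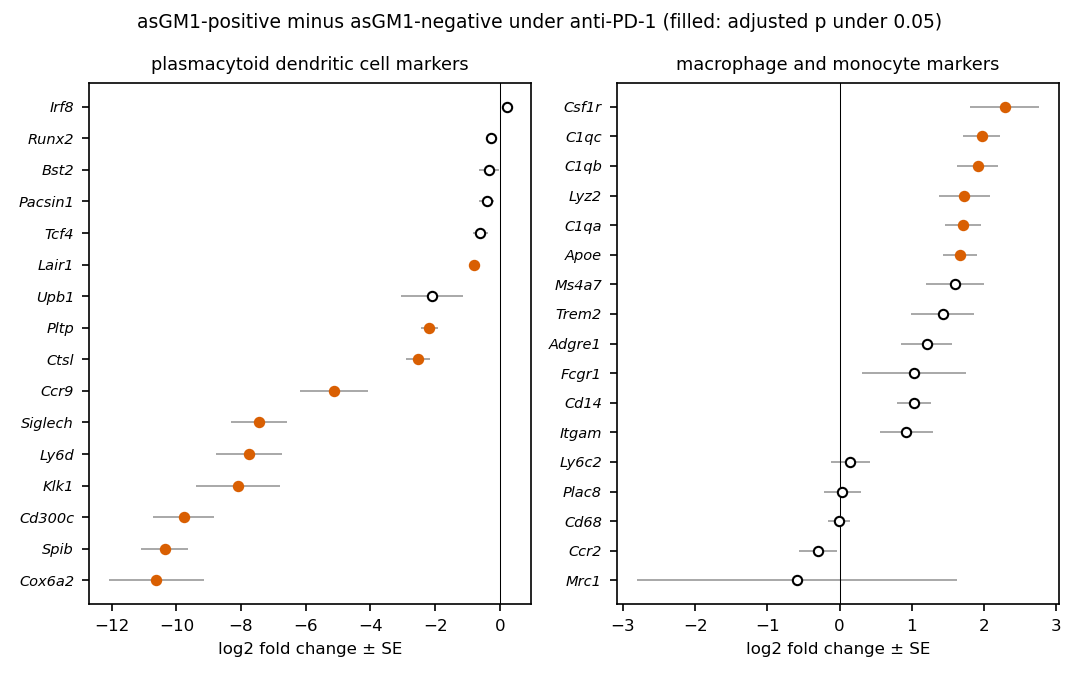
Log2 fold change ± SE (asGM1-positive minus asGM1-negative under anti-PD-1) of 16 plasmacytoid dendritic cell markers and 17 of the 18 macrophage markers, with filled points for genes that passed. The fitted values of genes without a count in the positive libraries, such as Spib, depend on edgeR's prior count. Most dendritic markers lie below 0, and the 6 passing macrophage markers drawn lie above it.

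Cd68, a lysosomal protein that macrophages share with other cells, was at 27.0, 27.5 and 29.0 CPM against 27.3, 26.6 and 29.0 CPM, and Adgre1 (F4/80) at 0.992, 0.715 and 1.51 CPM against 1.81, 2.25 and 3.38 CPM, which did not pass (edgeR adjusted p = 0.140). The 18 markers summed to 1353, 1678 and 1666 CPM against 1347, 1711 and 2364 CPM. Without Ly6c2, Plac8 and Ccr2, left out after the values were seen, the sums were 87.9, 92.4 and 133 CPM against 199, 257 and 347 CPM. Outside the list Msr1, a scavenger receptor, was at 0.168, 0.238 and 0.291 CPM against 1.64, 1.99 and 2.32 CPM, and Gatm, the first enzyme of creatine synthesis, at 3.13, 2.94 and 3.67 CPM against 11.4, 8.59 and 9.47 CPM. Neither overlapped, and both kept their calls without any single library. C3ar1, Slc11a1, Aif1 and Fcgr4, named after their values were seen and known from myeloid cells, also rose (log2 2.41, 1.27, 1.42 and 1.80). Each of these lost its call without 1 or more of the anti-PD-1 libraries. The part of macrophage RNA in the other rises was not tested.

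Of 10 tested markers of CD4 and regulatory T cells 2 fell in asGM1-positive cells and none rose, with 3 lower when the pair was a block. The list's median was -0.40 under anti-PD-1 and -0.80 under isotype, where 2 members passed as lower. Foxp3, the factor of regulatory T cells, was at 23.01, 59.3 and 36.0 CPM against 3.54, 6.22 and 7.13 CPM, and Cd40lg, the helper cell ligand of CD40, at 8.05, 16.7 and 14.0 CPM against 2.10, 2.51 and 3.05 CPM. Neither overlapped, and asGM1-negative replicate 2 was the highest in both. The adjusted p of Foxp3 was 0.0116, and 0.0501 without that library. Cd4 itself was at 6.61, 15.1 and 9.99 CPM against 4.201, 5.43 and 4.30 CPM and did not pass, and the 10 markers summed to 1789, 1913 and 1952 CPM against 1429, 1574 and 1645 CPM.

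No natural killer cell marker of 10 passed in edgeR without the block, where 3 had an unadjusted p under 0.05. Limma voom called 0 and DESeq2 1. The block of pairs gave 2 as higher, Eomes (log2 0.71), which T cells also express, and Fcgr3 (0.98), which myeloid cells also express. Ncr1 (NKp46), a receptor of natural killer cells, did not exceed 0.611 CPM in any of the 6 libraries, and the 10 markers summed to 327, 492 and 401 CPM against 320, 664 and 560 CPM.

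**Figure D5:**
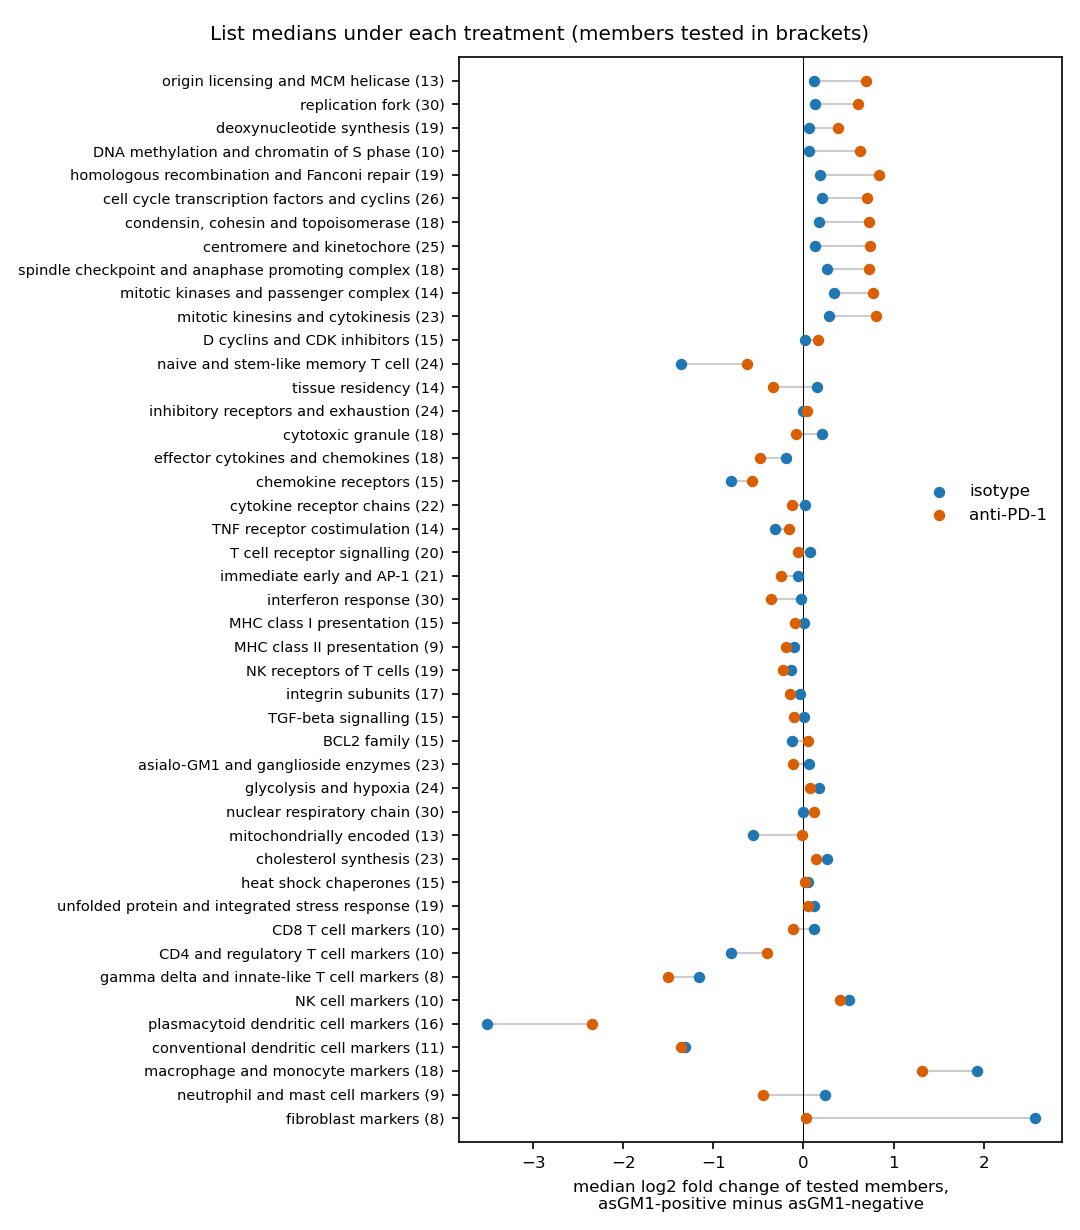
Median log2 fold change (asGM1-positive minus asGM1-negative, x axis) of each list with at least 8 tested members, under anti-PD-1 (orange) and isotype (blue). The cell division lists lie between 0.38 and 0.84 under anti-PD-1, and the plasmacytoid dendritic cell markers are lowest at -2.35.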

How the data were processed

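The authors deposited whole-number counts per gene, replicates kept apart, for 12 libraries of sorted mouse CD8+ cells. Per the labels, RNA was extracted with TRIzol and SMARTer ultra-low-input and TruSeq mRNA kits were named. Per the submitters' processing notes, HISAT2, StringTie and build mm39 were used. Versions, use of strand and treatment of reads with several matches are not given in the sources used here, so values of near-identical paralogs (Klra, tubulin and class I genes) and of overlapping genes are uncertain. Whether counts were tallied by read or derived from coverage is likewise not given.

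Of 56941 genes, 18657 passed edgeR's expression filter by group. They were tested in 1 quasi-likelihood fit of all 12 libraries with 4 group means (edgeR 4.0.16, R 4.3.3, TMM scaling, robust), with Benjamini-Hochberg adjustment over all genes tested. The contrast was asGM1-positive minus asGM1-negative under anti-PD-1, and the interaction set it against the same contrast under isotype. Standard errors were obtained from the fold change and the F statistic. Adjusted p-values are edgeR's where no tool is given. Counts of list members at an unadjusted p under 0.05 stand without the share of all genes, so they are no result about a list. Totals of 59.0 to 70.2 M counts per anti-PD-1 library leave the spread between libraries (biological coefficient of variation 0.336) as the limit on precision for all but scarce genes. Libraries of the same group differed well beyond counting noise, so none was a copy of another.

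Equal numbers were checked for pairing through the correlation of deviations from group means across genes, over the partners of each number. The correlations were 0.298, 0.121 and 0.168 under anti-PD-1 and 0.187, 0.162 and 0.253 under isotype, all over 0.1. Libraries of unequal number gave -0.192 to 0.026 under anti-PD-1 and -0.161 to -0.0198 under isotype. Deviations from a group mean cancel within the group, so positive values for partners force lower ones for unequal numbers. The values for unequal numbers are thus no separate evidence of pairing. From the correlations of partners, the numbers were taken to pair the libraries in the fit with the pair as a block. The main fit used no block and ignores any pairing, since the labels do not say what a number marks. The fit with the pair as a block is given beside the lists and genes described where it moved them. It called 2.85% of all genes tested as higher and 2.13% as lower, against 0.949% and 0.654% in the main fit. Its counts for every list stand against these larger shares.

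The comparison was proposed, and the 49 gene lists, the rule for named genes and the alternatives were chosen with earlier results of these data known. The rule named the 15 largest rises and falls among passing genes averaging log2 CPM 3 or more without overlap, the 12 smallest p-values in each direction, passing members of each list (or up to 4 with the smallest p) and a fixed set of T cell and marker genes, leaving out predicted genes and receptor segments. A further 27 genes were named after their values were seen. The lists held 796 distinct names, of which 795 were matched, 4 through older symbols. Alternatives were the pair block, a block of the number shared by all groups, a fit of the 6 libraries alone, DESeq2 1.42.0, voom (limma 3.58.1), other scaling and filters, and leaving out libraries or pairs. Leaving out pairs 1 and 3 was added after the data were seen. The fits were tested on simulated counts that held larger changes than the division genes showed, a common spread for all genes and no pair effect. That test does not cover changes as small as those of the division genes. Promoters came from RefSeq (GRCm38.p6) and were matched by symbol. No coordinates of the files' own build are printed. Some members of the lists are counted in the list totals and not reported here by name.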

Additional observations from a re-analysis of the deposited data

Results flagged for a closer look

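With the pair as a block, 13 of 18657 genes differed between the anti-PD-1 and isotype contrasts (edgeR adjusted p from 0.0406 to 0.0480), whereas none did without the block or with a block of the number shared by all 4 groups. Each value is the log2 fold change between populations under anti-PD-1 minus that under isotype. It was above 0 for 3 genes of DNA replication and chromosome structure, Pclaf (0.80), Top2a (0.88) and Lig1 (0.77, the ligase that joins Okazaki fragments). Pclaf averaged 247 and 270 CPM in isotype asGM1-negative and asGM1-positive cells, and Lig1 166 and 173 CPM. Under anti-PD-1 both were higher in asGM1-positive than in asGM1-negative cells. For Pclaf, every asGM1-negative library under anti-PD-1 lay below the isotype asGM1-negative average. Its mean in asGM1-positive cells was no higher under anti-PD-1 than under isotype. The difference was also above 0 for the co-stimulatory receptor Tnfrsf4 (OX40, 0.89) and for Cd160 (0.97). Cd160 averaged 199 and 93.8 CPM under isotype and 212 and 197 CPM under anti-PD-1.

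The difference was below 0 for the interferon-induced genes Ifit3 (-0.94) and Ifit3b (-0.996), near-identical paralogs, and for Cd274 (-0.79). It was below 0 as well for Slc26a11 (-0.94), the glycolytic enzyme Aldoc (-0.77), Anxa1 (-0.82) and Zfp683 (Hobit, a factor of resident T cells, -1.17). Zfp683 averaged 29.8 and 51.2 CPM under isotype and 3.18 and 2.44 CPM under anti-PD-1. Anxa1 averaged 144 and 193 CPM under isotype and 221 and 168 CPM under anti-PD-1.

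For Zdhhc14, a palmitoyltransferase, the fitted difference of 9.74 is no measure of size, since the gene had no count in the isotype asGM1-positive libraries and the fit then depends on the prior count. It averaged 1.05 CPM in isotype asGM1-negative cells, and under anti-PD-1 it was at 2.91, 0.511 and 0.719 CPM against 4.66, 0.768 and 1.30 CPM.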

How the results depend on the processing

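No call of a named gene reversed under any alternative. Of 163 named genes that passed, 160 kept their call with the pair as a block, 163 in DESeq2 and 145 in limma voom, whereas 25, 14 and 18 did without pair 1, 2 or 3, where 2 libraries a group remain. The 299 passing genes (177 higher, 122 lower) became 929 (531 higher, 398 lower) with the replicate block of 6 pairs, 636 (363 and 273) in the 6 libraries alone with that block, and 853 (497 and 356) in DESeq2. A filter at 1 CPM gave 267 higher genes. Leaving out pair 1, 2 or 3 gave 29 (6 higher, 23 lower), 17 (4 and 13) and 24 (6 and 18). Leaving out single libraries, isotype ones included, gave 65 to 379 passing, 24 to 233 higher and 41 to 151 lower genes. The interaction passed for 13 genes with the block of pairs, 0 with a block of the number shared by all groups (where 374 genes passed the contrast) and 136 in DESeq2. The cause of these differences was not tested. Depth limits only the scarce genes, which rest on few counts.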

Other observations

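Metabolic lists gave no call in edgeR without the block, limma voom or DESeq2. Slc16a3 (log2 0.44) and Idi1 (0.63) were higher and Egln3 (-0.48) lower with the pair as a block. The medians were 0.08 for 24 genes of glycolysis and hypoxia (3 with an unadjusted p under 0.05), 0.11 for 30 nuclear genes of the respiratory chain (1), -0.02 for 13 mitochondrially encoded genes (0) and 0.14 for 23 genes of cholesterol synthesis (3). Psat1, an enzyme of serine synthesis, was at 69.1, 75.7 and 73.4 CPM against 99.4, 105 and 110 CPM and rose (edgeR adjusted p = 0.0279). Its populations did not overlap.

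Mmp9, a secreted protease, was at 2.82, 3.97 and 3.43 CPM against 0.460, 0.297 and 0.446 CPM and fell (edgeR adjusted p = 0.00369). Kit, the receptor of stem cell factor, was at 79.3, 82.6 and 62.9 CPM against 31.1, 44.5 and 22.1 CPM (edgeR adjusted p = 0.0410, and up to 0.161 without 1 library). H2-Oa, a chain of the class II chaperone modulator H2-O, was at 16.2, 17.9 and 14.3 CPM against 8.99, 8.03 and 7.24 CPM (edgeR adjusted p = 0.00897). None of these 3 overlapped.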
